A study of Mus musculus with 4 samples.

Results

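The sarcomeric myosin light chains described here are 6 genes that encode small subunits of the muscle myosin head, Myl1, Mylpf, Myl2, Myl3, Myl4 and Myl6b, together with Mylk2, the kinase that phosphorylates the regulatory class. They were taken by gene symbol, and all 7 were found among the 28782 genes that had entries of their own with a count. The data came from 4 mouse tibialis anterior muscles, a fast muscle of the lower leg, studied by TOMO-seq, in which a frozen tissue is cut crosswise into a series of slices that are barcoded and sequenced singly. The 4 muscles form a single group, and the design follows gene expression from one end of a muscle to the other. The sources used here give no genotype, strain, age or treatment. Nor do they tell if each muscle is from a different mouse. Most p-values below rest on the spread between zones or sections within a muscle. Those of the sign-flip tests rest on the 4 muscle differences. Any of this spread may be technical.

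A myosin molecule has heavy chains that form the motor and the tail, and each motor head carries an essential and a regulatory light chain wrapped around its lever arm. The essential chains differ between fibre types and stages of life. The regulatory chain of skeletal muscle is phosphorylated by a calcium and calmodulin dependent kinase, Mylk2, which raises the force of fast fibres after repeated stimulation. In adult fast muscle the essential chain comes from Myl1 and the regulatory chain from Mylpf. Myl3 and Myl2 are the essential and regulatory chains of slow fibres and of the heart ventricle, Myl4 is the essential chain of embryonic muscle and of the heart atrium, and Myl6b is an essential chain of slow muscle and of non-muscle cells.

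Sections were counted from the first to the last that the authors kept, 37, 45, 46 and 43 in muscles 1 to 4 (171 in all), and each was given a relative position from 0 to 1. The sectioning order and the orientation of the muscles are not stated in the labels, so the end with low barcode numbers is called the first end. Kept sections held 86190 to 1159697 corrected transcripts. Levels are given in CPM, corrected transcripts per 1000000 of a section's or zone's total. The library method reads transcript 3′ ends, so a longer transcript does not give more counts and levels of different genes can be set side by side without a length correction. Section barcodes of muscles 1 and 2 came from another set than those of muscles 3 and 4, and the set is taken as a batch. The fast character of the tissue was plain in every zone: 5 fast fibre markers summed to 20785 CPM or more over the 20 zone sums described below, and 4 slow fibre markers (Myh7, Tnnt1, Tnni1 and Tnnc1) to 7.84 CPM or less.

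The starts of 3 of these genes are shown because Myl1 and Mylpf are the abundant pair whose levels moved together along the muscles, while Myl3 ran opposite to Myl1. RefSeq promoter windows (GRCm38.p6, 250 bases before to 50 after a gene's start) were found for 6 of the 7 genes. The 250 bases before the start are printed 5′ to 3′ on the gene's strand, and capitals mark the E-box letters CANNTG, the core bound by the muscle regulators of the MyoD family and by many other factors. The Myl1 stretch is chr1:66945057-66945306 on the minus strand, that of Mylpf is chr7:127211358-127211607 and that of Myl3 is chr9:110763428-110763677, both on the plus strand.
Myl1: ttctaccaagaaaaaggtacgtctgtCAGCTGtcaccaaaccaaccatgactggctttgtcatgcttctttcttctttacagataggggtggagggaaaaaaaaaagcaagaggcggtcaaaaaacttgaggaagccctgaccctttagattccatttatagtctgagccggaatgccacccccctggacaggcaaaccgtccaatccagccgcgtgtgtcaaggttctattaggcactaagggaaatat
Mylpf: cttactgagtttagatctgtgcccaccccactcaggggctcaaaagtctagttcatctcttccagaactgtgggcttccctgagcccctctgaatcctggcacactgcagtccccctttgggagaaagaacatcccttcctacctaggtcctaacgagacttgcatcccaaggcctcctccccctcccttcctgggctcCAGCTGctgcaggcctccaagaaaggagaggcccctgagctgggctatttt
Myl3: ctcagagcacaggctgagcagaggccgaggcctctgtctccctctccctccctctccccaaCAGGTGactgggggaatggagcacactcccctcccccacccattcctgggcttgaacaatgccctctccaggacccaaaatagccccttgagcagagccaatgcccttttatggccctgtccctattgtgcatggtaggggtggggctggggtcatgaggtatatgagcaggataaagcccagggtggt
Each of these stretches held 1 CANNTG, which begins 224, 51 and 189 bases before the start of Myl1, Mylpf and Myl3. The 3 printed stretches lie inside the gene spans given below, since each of these genes has several annotated starts. In the whole window of 300 bases Myl4 had none, Myl6b 2, and the 2 windows listed for Myl2 had 2 and 3. Those 2 windows, at chr5:122092474-122092773 and chr5:122092939-122093238, lie well before the Myl2 gene position given below. Of all 32851 promoter windows of that length, 72.3% held at least 1 CANNTG, which reads the same on both strands, and 17.6% held 3 or more. No window of these genes matched the MEF2 site, which was found in 1.86% of all windows on either strand. These letter matches are a description of the windows.

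The genes lie apart in the genome (GRCm38): Myl1 on chromosome 1 at 66924295 to 66945404, Mylpf on 7 at 127208890 to 127214298, and Mylk2 on 2 at 152911352 to 152923068. Myl3 lies on chromosome 9 at 110741861 to 110769798, Myl2 on 5 at 122100951 to 122113472, Myl4 on 11 at 104550663 to 104595753 and Myl6b on 10 at 128494157 to 128498685. Myl1 makes a long and a short essential chain from alternative starts, and 3 of its 5 annotated coding transcripts end within 10 bases of each other while their starts span 9789 bases. A count of 3′ ends therefore cannot tell these isoforms apart. Myl3, Myl2 and Myl4 overlap annotated genes on the opposite strand, and no source used here says whether counting used strand. For Myl3 the partner, Pth1r, had 10 counts in all sections together, against 1512 for Myl3 itself.

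Myl1 and Mylpf supplied nearly all light chain transcripts. Myl1 stood at 8214, 5991, 4873 and 5600 CPM in muscles 1 to 4, a mean of 6169 ± 1440 (SD, n = 4). Mylpf stood at 4326, 3195, 2491 and 1609 CPM, a mean of 2905 ± 1148. In each muscle Myl1 was the higher of the pair. Among the counts of the 4 essential chain genes Myl1 took 99.6% ± 0.083, and among those of the 2 regulatory chain genes Mylpf took 99.96% ± 0.0094 (SD, n = 4). A myosin head holds an equal number of both kinds. The summed essential counts exceeded the regulatory ones 1.91, 1.88, 1.96 and 3.49 times in muscles 1 to 4. Muscle 4 lies apart from the others because its Mylpf was low and its Myl1 was not. Section by section, the median Mylpf count per Myl1 count was 0.51, 0.53, 0.51 and 0.28.

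The remaining genes were far lower. Mylk2 stood at 51.4, 38.9, 27.5 and 17.8 CPM in muscles 1 to 4 (33.9 ± 14.5, SD), the same order over the muscles as Mylpf, its substrate. That order was not particular to this pair, since Myl4 had it too. Myl3 stood at 36, 13, 13.7 and 10.5 CPM (18.3 ± 11.9), so that muscle 1 was above the other 3. Myl6b stood at 5.39, 5.49, 5.12 and 10.2 CPM (6.54 ± 2.41), with muscle 4 the high one. Myl4 stood at 2.43, 1.81, 1.37 and 0.70 CPM (1.58 ± 0.73) and Myl2 at 1.43, 1.05, 1.26 and 0.48 CPM (1.05 ± 0.41). These last values rest on 16 to 46 counts of Myl4 and 11 to 34 counts of Myl2 per muscle.

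**Figure D1:**
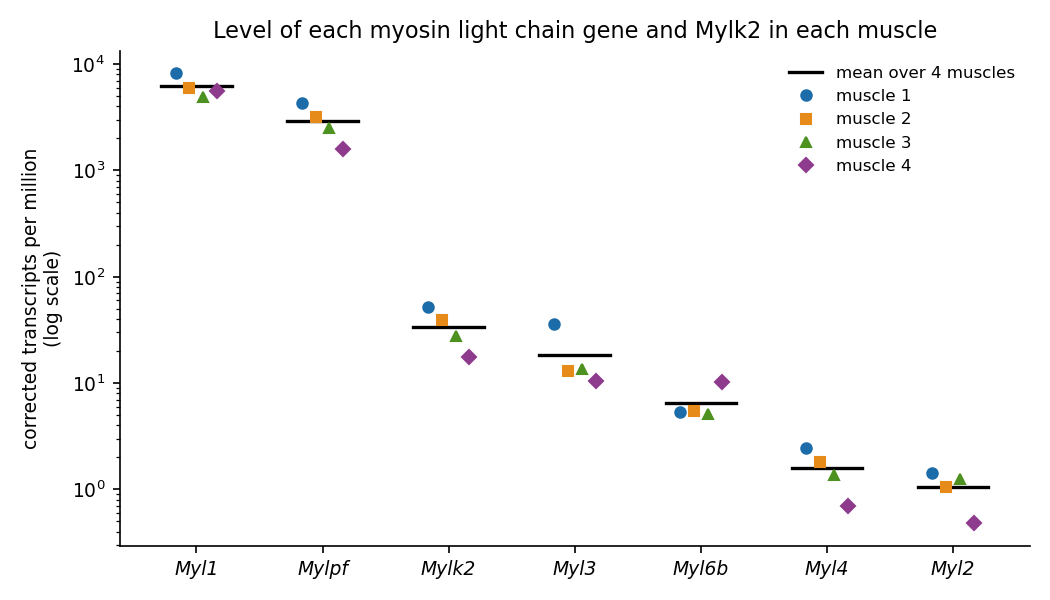
Level of each of the 7 genes in the kept sections of each muscle, in CPM on a log axis, with a bar at the mean of the 4 muscles. Myl1 and Mylpf lie between 1609 and 8214 CPM, and the other 5 genes at 51.4 CPM or below.

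The order Myl1, Mylpf, Mylk2, Myl3, Myl6b, Myl4, Myl2 held within every muscle, but not every step of it exceeds the spread. Over the 4 muscles the ranges of Mylk2 and Myl3 overlap, and those of Myl3 (from 10.5 CPM) and Myl6b (up to 10.2 CPM) are separated only narrowly. In muscle 4, Myl3 and Myl6b were nearly level at 10.5 and 10.2 CPM. Myl4 and Myl2 also overlap, and in muscle 3 they had 37 and 34 counts. The gap between Mylpf and Mylk2 separates the groups without overlap, the lowest Mylpf value being 1609 CPM and the highest Mylk2 value 51.4 CPM.

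The slow essential chain was present where the slow heavy chain was almost not. Myh7, the heavy chain of slow fibres, had 13 counts over the 4 muscles, with 0 in muscle 2, which allows up to 0.175 CPM there. Myl3 had 1512. The regulatory partner of the same fibre type, Myl2, had 90 counts. Of the 3 adult fast heavy chains, Myh4 (type 2B) held 76.1%, 75.7%, 90.6% and 92% of the heavy chain counts of Myh1, Myh2, Myh4 and Myh7 in muscles 1 to 4, Myh1 (type 2X) 15.9%, 16.1%, 6.78% and 6.45%, and Myh2 (type 2A) 8.05%, 8.18%, 2.59% and 1.52%. Myl3 as a share of Myl1 and Myl3 together was 0.44%, 0.22%, 0.28% and 0.19%. Muscle 1 was thus high for both Myl3 and Myh2, while muscle 2 was high for Myh2 alone. Fewer fibres of a type and less RNA per fibre cannot be told apart in sections of whole tissue.

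Along the muscle, Myl3 was highest near the middle and Myl4 at the ends. To test this, counts were summed in 5 zones of equal length per muscle, and zones 1 and 5 together were compared with zone 3 (edgeR quasi-likelihood test with TMM scaling, which sets a typical gene to no change, and each muscle as a block). Of the 6 genes that passed the filter on low counts, 3 were called at an adjusted p under 0.05, against 1.45% of the 9317 genes tested. Myl2 did not pass the filter. A difference of the same sign in all 4 muscles was seen for 4 of the 6 genes (Myl1, Mylpf, Myl3 and Myl4), against 18.4% of all genes tested. The zone levels below are plain CPM, while the log2 differences are between TMM-scaled values, so these need not match exactly.

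Myl3 fell from the middle to both ends. In zones 1 to 5 its level was 20.2, 34.5, 61.8, 40.1 and 24.9 CPM in muscle 1. The same zones held 13.1, 13, 18.1, 11 and 3.52 CPM in muscle 2. They held 9.38, 13, 15.6, 17.4 and 11.3 CPM in muscle 3, and 8.30, 9.28, 13.9, 11.4 and 8.32 CPM in muscle 4. Zone 3 was the highest in muscles 1, 2 and 4, and zone 4 in muscle 3, and in each muscle both end zones were below zone 3. The fitted difference between ends and middle was -0.92 ± 0.13 on the log2 scale (SE, edgeR adjusted p = 1.47e-06). The single muscles, 1 to 4, gave -1.18, -1.36, -0.65 and -0.65. Relative to zone 3 the fitted levels were -0.84, -0.47, -0.31 and -0.99 log2 units in zones 1, 2, 4 and 5. Genes called lower at the ends made up 0.826% of those tested.

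The decline of Myl3 was seen within both barcode sets, at -1.10 ± 0.17 in muscles 1 and 2 (edgeR adjusted p = 5.66e-05) and -0.66 ± 0.17 in muscles 3 and 4 (edgeR adjusted p = 0.0456). Deeper sections tended to have a higher Myl3 share: over the sections of a muscle, r between log2(CPM + 1) of Myl3 and the log2 total of the section was 0.24, 0.44, 0.68 and 0.63. With all zone sums thinned to the shallowest, of 1989683 transcripts, the difference was -1.17 ± 0.16 (edgeR adjusted p = 7.47e-07). Thinning evens the totals of the zones but not the depth of the sections within them, so the part of section depth was not tested. With the 2 outermost sections at each end left out the Myl3 difference was -0.86 ± 0.13 (edgeR adjusted p = 1.42e-05). Markers of fibro-adipogenic progenitors, the matrix-forming stromal cells of muscle, were lower at the ends too, 4 of 5 being called by edgeR (Dcn, Gsn, Cxcl14 and Mfap5). Gsn was lower in only 2 of 4 muscles. DESeq2 called 1 of the 2 markers with an adjusted p, and limma called 5 of 5. The markers summed to 250 to 322 CPM in zone 1, 287 to 646 CPM in zone 3 and 266 to 464 CPM in zone 5, and none was at 0. Flt1 of the 4 endothelial genes tested and C1qb, the only macrophage gene tested, were also lower. Their part in the Myl3 result was not tested.

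**Figure D2:**
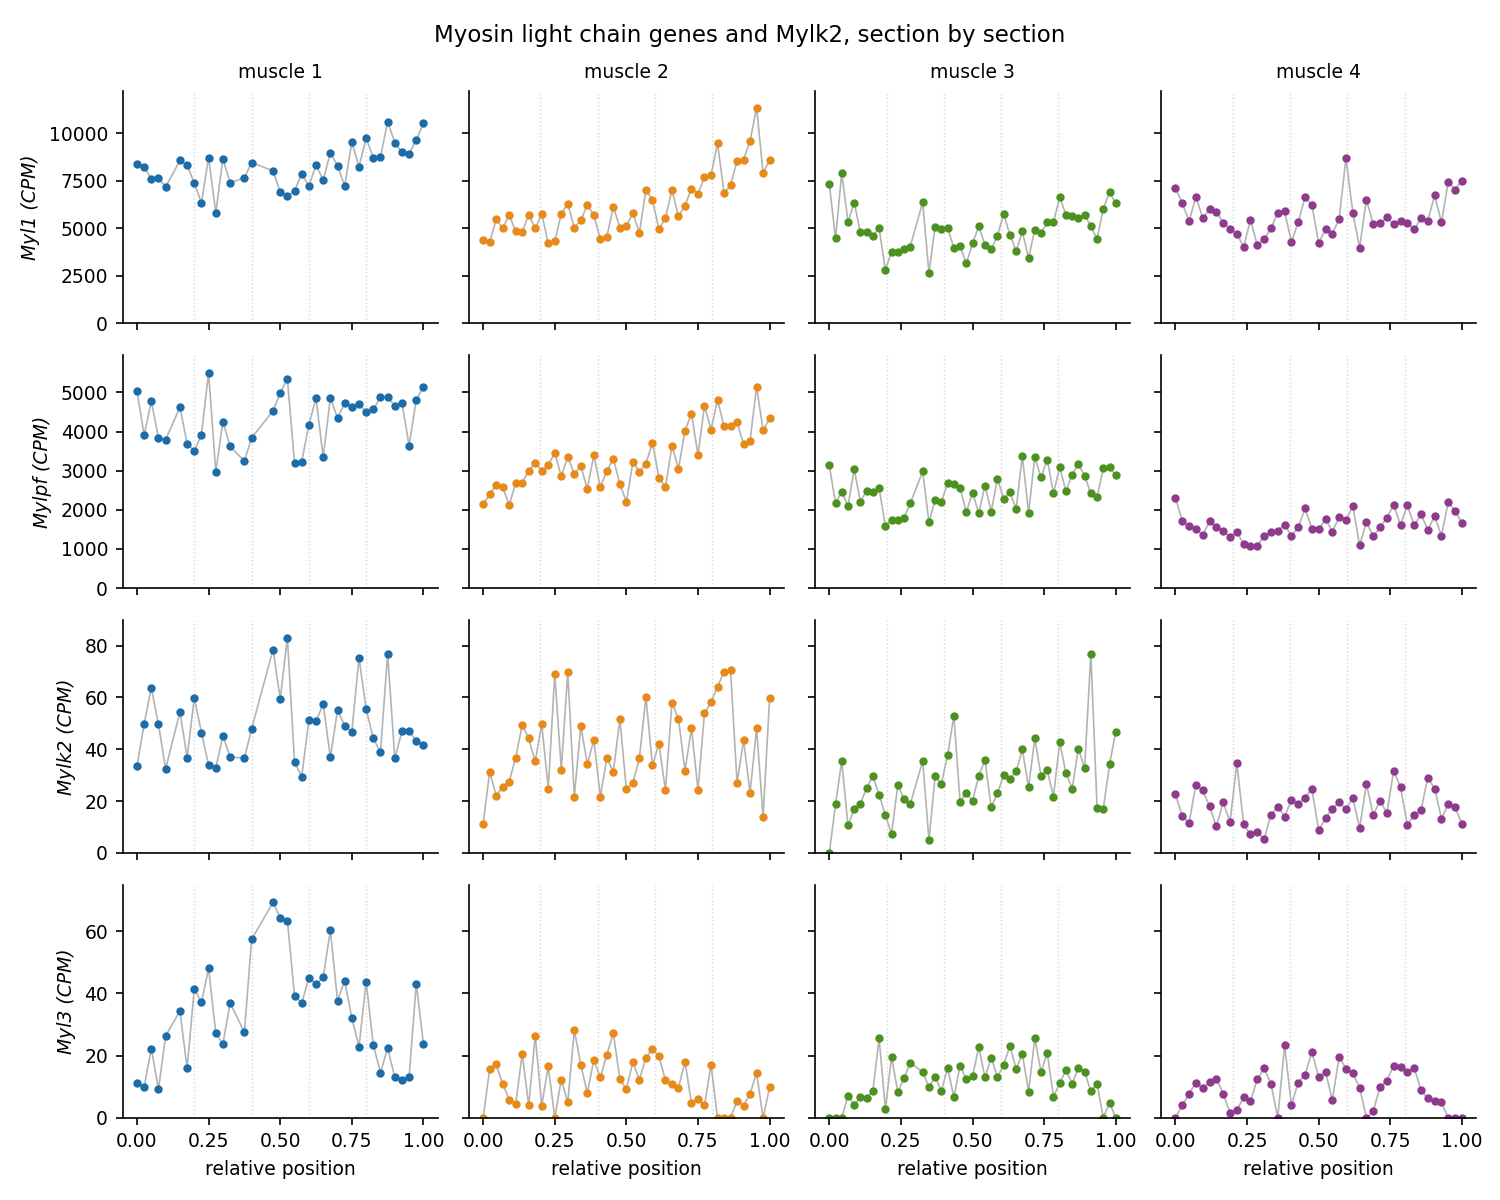
Levels of Myl1, Mylpf, Mylk2 and Myl3 in CPM in each kept section against relative position, for the 4 muscles, with dotted lines at the borders of the 5 zones. Myl3 peaks at 69.3 CPM at position 0.475 in muscle 1, and Myl1 reaches 11332 CPM near the last end of muscle 2.

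Single sections gave the same shape. In muscle 1 Myl3 ranged over 9.27, 34.3 and 69.3 CPM (lowest, median and highest section). The lowest section was at 0 in the other muscles, with medians of 10.9, 12.6 and 9.69 CPM and highest sections of 28.3, 25.6 and 23.3 CPM. Sections without a Myl3 count numbered 0, 6, 5 and 6 in muscles 1 to 4. Of the 17, 14 lay in zones 1 and 5, which held 9 and 9 of the 45 sections of muscle 2. Those zones held 10 and 10 of 46 sections in muscle 3, and 9 and 9 of 43 in muscle 4. The mean Myl3 count per section was only 4.94, 8.01 and 5.59 in muscles 2 to 4, and the part of depth in the empty sections was not tested. A smooth curve of position (natural spline, edgeR) was called for Myl3 in muscle 1 (adjusted p = 1.31e-08), muscle 2 (2.16e-04) and muscle 3 (7.48e-04), but not in muscle 4 (0.204), where 1.23%, 3.08%, 3.41% and 1.40% of all genes fitted were called in muscles 1 to 4. Sections of a muscle are not animals, so these p-values describe each muscle by itself.

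The same course was seen when Myl3 was set against its fast counterpart. The log2 ratio of Myl3 to Myl1 was lower at the ends by 1.67, 1.61, 0.92 and 0.67 in muscles 1 to 4, a mean difference of -1.22 ± 0.50 (SD, n = 4). With 4 muscles the exact two-sided sign-flip permutation test cannot go below p = 0.13, which is the value found (0.438 adjusted over the 14 ratio comparisons made). In single sections the median number of Myl3 transcripts per 1000 of Myl1 was 4.48, 1.80, 2.60 and 1.75 in muscles 1 to 4. Its maximum was 9.49 at position 0.525, 5.63 at 0.318, 5.23 at 0.217 and 3.96 at 0.381. All 4 maxima lay in zones 2 or 3, but each is a single section. In muscle 3 values of 5.13 and 5.20 lay at 0.174 (zone 1) and 0.717 (zone 4). In muscle 2 a value of 5.31 lay at 0.182 (zone 1). The most Myl3 counts in a section were 76.7, 20, 24.1 and 18 in muscles 1 to 4.

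**Figure D3:**
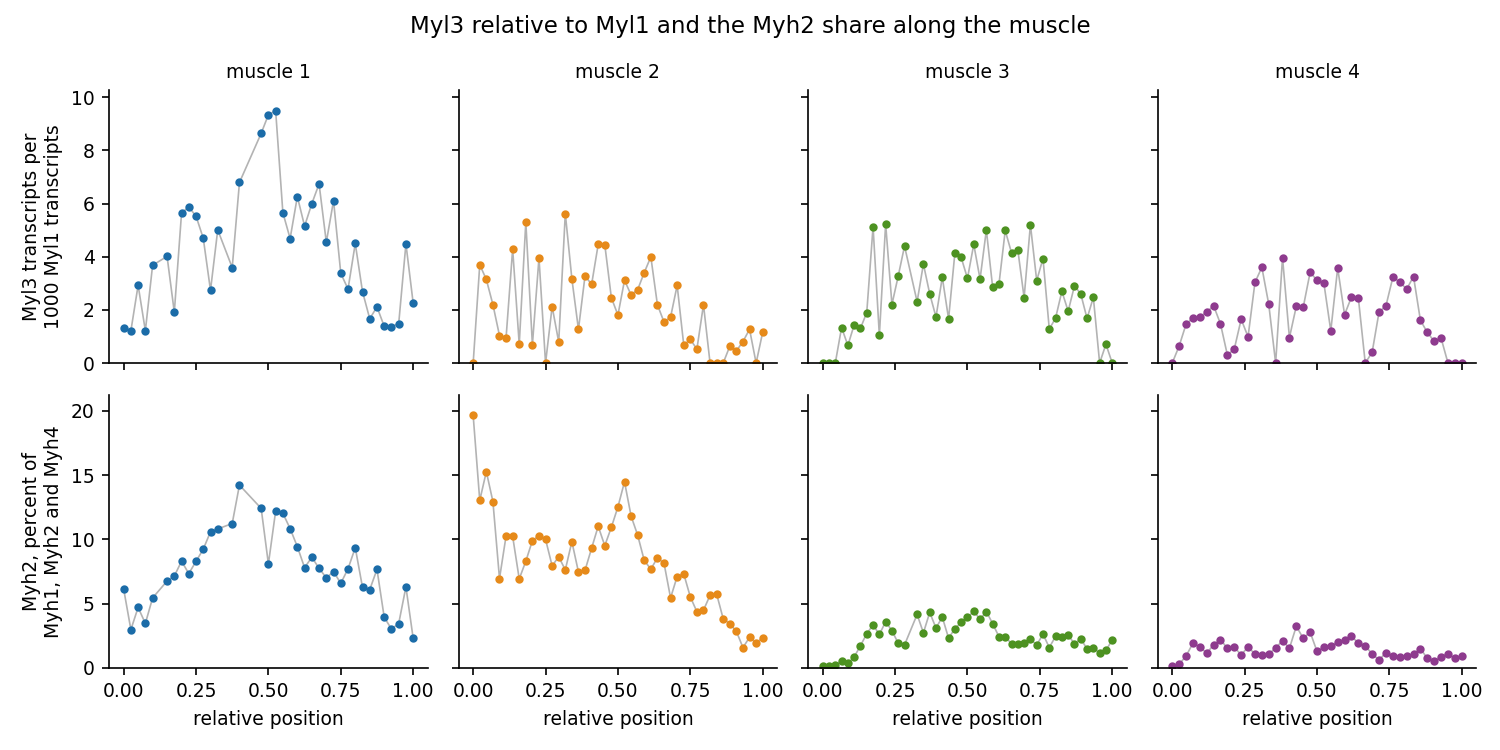
Myl3 transcripts per 1000 Myl1 transcripts (top) and Myh2 as a percent of the Myh1, Myh2 and Myh4 counts (bottom) in each kept section against relative position, for the 4 muscles. The Myl3 ratio is highest at 9.49 in muscle 1, and the Myh2 share is highest, at 19.6%, in the first section of muscle 2.

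The heavy chain of type 2A fibres followed a similar course. Myh2 fell at the ends by 0.71 ± 0.09 log2 units (edgeR adjusted p = 6.11e-07), lower in 4 of 4 muscles. Over sections, r between the Myh2 share and the Myl3 to Myl1 ratio was 0.69, 0.35, 0.61 and 0.31 in muscles 1 to 4, over 37, 45, 46 and 43 sections that share library and depth. In the first section of muscle 2 the Myh2 share was 19.6% and no Myl3 was counted. That section held 391 Myl1 counts, the fewest of the muscle, so its Myl3 count of 0 cannot show that the 2 courses differ there. The next section had 3.70 Myl3 transcripts per 1000 of Myl1, above that muscle's median of 1.80. Both genes were higher at the first than at the last end of muscle 2, Myh2 by 1.09 log2 units and Myl3 by 2.22. In the other muscles this Myh2 difference lay between -0.43 and 0.28. Of the other heavy chains, Myh1 had a difference of -0.17 (edgeR adjusted p = 0.293) and Myh4, whose counts come near the ceiling described below, 0.21 (edgeR adjusted p = 0.164). Myh3, Myh7, Myh7b, Myh8 and Myh13 were too low to be tested.

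Myl4 rose at the ends, on few counts. Its zone sums held 8, 6, 4, 11 and 17 counts in muscle 1 and 10, 5, 3, 6 and 7 in muscle 2. They held 12, 2, 3, 9 and 11 in muscle 3 and 3, 1, 3, 4 and 5 in muscle 4. In muscles 1 to 3 both end zones were above the middle zone in CPM (2.53 and 3.82 against 1.22, 3.36 and 3.52 against 0.62, and 2.45 and 2.59 against 0.59). In muscle 4 the end zones were at 0.55 and 1.26 CPM against 0.50, a difference of a few counts. The fitted difference was 1.80 ± 0.37 on the log2 scale (SE, edgeR adjusted p = 0.00254). The single muscles gave 1.51, 2.35, 1.87 and 0.78. Genes called higher at the ends made up 0.623% of those tested.

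With equal weight for each section (limma) the difference was 0.88 ± 0.20 (adjusted p = 0.00828), and with 3 zones it was 1.16 ± 0.30 (edgeR adjusted p = 0.0556), above the threshold. The call on Myl4 was also lost without muscle 2 (edgeR adjusted p = 0.0796), without muscle 3 (0.0614) and within either barcode set, where the difference was 2.0 ± 0.52 (0.0600) and 1.53 ± 0.61 (0.364). Entries that name Myl4 together with another gene, mostly the cell cycle gene Lin52, held 69 counts, 53.1% of the 130 counted for Myl4 alone. With them added the difference was 1.30 ± 0.29 (edgeR adjusted p = 0.00560). On the opposite strand, Gm11665 had 55 counts. Among markers of immature or denervated fibres, which express Myl4, 0 of the 3 tested were called by edgeR (2 at an unadjusted p under 0.05), 0 by DESeq2 (1 of 3 with an adjusted p) and 0 by limma. The list summed to 193 to 787 CPM in zone 1, 66.9 to 437 in zone 3 and 31.6 to 303 in zone 5, nearly all of it the cardiac actin Actc1 (0.40 at the ends, edgeR adjusted p = 0.0778). Of the 6 heart markers, Nppa had 9 counts, Nppb 3, Myh6 21, Tnni3 18 and the atrial light chain Myl7 1 in all sections together. Tnnt2 had 257 counts and was the only heart marker tested. It went the other way from Myl4, at -0.59 at the ends and negative in 3 of 4 muscles (edgeR adjusted p = 0.397). By limma Tnnt2 was called. Of 4 tendon markers tested, Chad and Prg4 were called higher in the mean of both ends, although the list was high at the last end only, with sums of 8.48 to 19.8 CPM in zone 1, 12.5 to 45.3 in zone 3 and 35.6 to 140 in zone 5. Their part in the Myl4 result was not tested.

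Myl1 was slightly higher in the mean of both ends after TMM scaling. Its level in zones 1 to 5 was 7978, 7395, 7536, 8161 and 9572 CPM in muscle 1. In muscle 2 it was 5124, 5504, 5560, 6463 and 8503 CPM. Muscle 3 had 4955, 4616, 4276, 4898 and 5828 CPM, and muscle 4 had 5737, 4814, 5960, 5414 and 5711 CPM. Zone 5 was the highest in muscles 1 to 3, while zone 1 was the lowest in muscle 2. Muscle 4 showed no such step, and both its end zones were below zone 3 in CPM. The fitted difference between ends and middle was 0.26 ± 0.072 (SE, edgeR adjusted p = 0.0483). The single muscles gave 0.49, 0.26, 0.27 and 0.03.

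This call stood close to the threshold. It was lost without muscle 1 (edgeR adjusted p = 0.316), muscle 2 (0.146) or muscle 3 (0.361). The width of the zones also mattered. With 3 zones the difference was 0.16 ± 0.061 (edgeR adjusted p = 0.396), and with 10 zones 0.43 ± 0.074 (2.98e-05). With plain library totals in place of TMM the difference was 0.18 ± 0.091 (edgeR adjusted p = 0.466), and by that measure muscle 4 was at -0.06. Within the barcode set of muscles 1 and 2 it was 0.38 ± 0.093 (edgeR adjusted p = 0.0433) and within that of muscles 3 and 4 0.15 ± 0.091 (0.671). Across any of the 5 zones Myl1 was called (edgeR adjusted p = 0.0232), at 0.17, 0.03, 0.13 and 0.34 log2 units in zones 1, 2, 4 and 5 relative to zone 3. The smooth curve along the muscle was called for Myl1 in muscle 2 alone (edgeR adjusted p = 0.0142).

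Mylpf had its highest zone where Myl1 did in muscles 1 to 3, but not in muscle 4. In zones 1 to 5 it stood at 4141, 3798, 4501, 4493 and 4567 CPM in muscle 1. Muscle 2 had 2626, 2975, 3012, 3578 and 4280 CPM, muscle 3 had 2364, 2188, 2395, 2721 and 2834 CPM, and muscle 4 had 1541, 1279, 1670, 1733 and 1747 CPM. Zone 5 was the highest in each muscle. The difference between ends and middle was 0.13 ± 0.066 (edgeR adjusted p = 0.454). It was positive in 4 of 4 muscles after TMM scaling and in 2 of 4 with plain totals. Only with 10 zones was this difference called, at 0.21 ± 0.066 (edgeR adjusted p = 0.0497). Over all 5 zones together Mylpf was called (edgeR adjusted p = 0.0197), with 0.03, -0.10, 0.16 and 0.22 log2 units in zones 1, 2, 4 and 5 relative to zone 3. The ratio of Mylpf to Myl1 differed between ends and middle by -0.14 ± 0.13 (SD, n = 4) on the log2 scale, negative in 3 of 4 muscles (exact sign-flip p = 0.25).

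Mylk2 and Myl6b showed no difference between ends and middle that passed the test. Mylk2 held 45.8, 42.7, 64.2, 52.3 and 51.6 CPM in zones 1 to 5 of muscle 1. In muscle 2 it held 31.3, 38.5, 35.6, 43.1 and 51.8 CPM. In muscle 3 it held 21.4, 24.2, 27, 31.6 and 33.5 CPM, and in muscle 4 16.8, 13.9, 18.7, 21 and 17.1 CPM. The lowest zone was 1 or 2 in each muscle. Its fitted difference between ends and middle was -0.02 ± 0.089 (edgeR adjusted p = 0.972). Myl6b ranged from 3.70 to 12.2 CPM over the 20 zone sums, with a difference of -0.01 ± 0.16 (edgeR adjusted p = 0.991), so an effect as large as that of Myl3 lies well outside its error. The ratio of Myl6b to Myl3 was higher at the ends by 0.98 ± 0.29 (SD, n = 4), in 4 of 4 muscles (exact sign-flip p = 0.13, the smallest possible).

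Myl2 was too rare for the filter. Its zone sums held 2, 5, 8, 5 and 7 counts in muscle 1, 1, 5, 8, 4 and 0 in muscle 2, 3, 12, 4, 10 and 5 in muscle 3, and 1, 2, 6, 0 and 2 in muscle 4. The counts of 0 allow up to 1.51 CPM in zone 5 of muscle 2 and 0.70 CPM in zone 4 of muscle 4. Zone 3 was the highest zone in 3 of the muscles, but every zone held few counts, 12 at most. In muscle 1 zone 5 held 7 counts against 8 in zone 3, and in muscle 3 it held 5 against 4. Without the filter the difference between ends and middle was -1.06 ± 0.41 (edgeR adjusted p = 0.556).

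**Figure D4:**
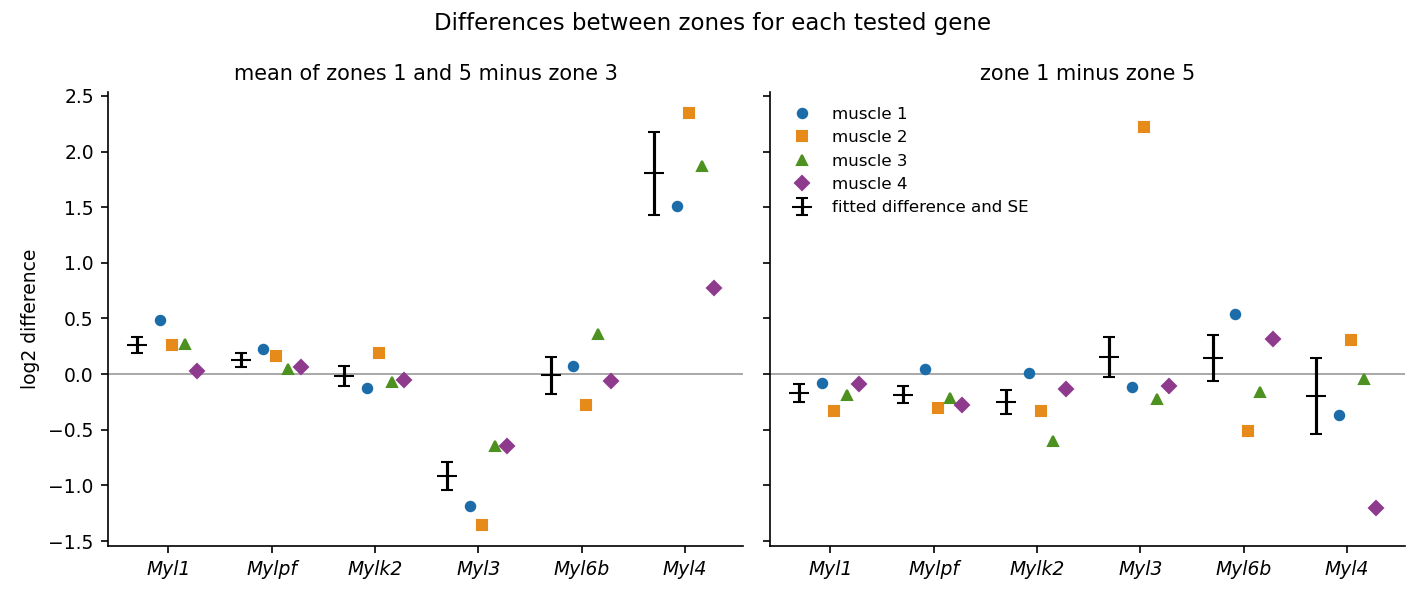
Log2 difference between the ends and the middle (left) and between the first and the last end (right) for the 6 genes tested. Colored symbols are the 4 muscles and black bars the fitted difference with its SE, from -0.92 for Myl3 to 1.80 for Myl4 on the left.

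Between the 2 ends, 0 of the 6 genes were called by edgeR, against 3.19% of all genes tested. At an unadjusted p under 0.05 there were 3, namely Mylk2 (-0.25 ± 0.11, edgeR adjusted p = 0.267), Mylpf (-0.19 ± 0.076, edgeR adjusted p = 0.215) and Myl1 (-0.17 ± 0.082, edgeR adjusted p = 0.339). All 3 differences were negative, lower at the first end, for Myl1 in 4 of 4 muscles and for the others in 3. DESeq2 called 0 of 4 with an adjusted p, and limma called 2 of 6, Myl1 and Mylpf (adjusted p = 0.0284 for both). Myl3 differed between muscles here: it was 2.22 log2 units higher at the first end of muscle 2 and between -0.23 and -0.11 in the others. Without muscle 2 its fitted difference turned from 0.15 to -0.11. Over any of the 5 zones 4 genes were called, Myl1, Mylpf, Myl3 and Myl4, against 3.99% of all genes tested. The edgeR adjusted p was 1.11e-05 for Myl3 and 0.00190 for Myl4.

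Markers of other cells also differed between the first and the last end, in the comparison where Myl1, Mylpf and Mylk2 had negative differences. All 5 erythrocyte genes were higher at the first end, the globins Hba-a1, Hba-a2, Hbb-bs and Hbb-bt by 1.63, 1.59, 1.68 and 1.74 log2 units and the heme enzyme Alas2 by 2.27. They summed to 1365 to 3552 CPM in zone 1 and 633 to 1760 CPM in zone 5, and the mean r of Hba-a1 with Myl1 over sections was -0.35. Of the 4 tendon genes tested, Fmod, Chad and Prg4 were lower there, by -2.68, -2.58 and -2.12. The cardiac actin Actc1 was higher at the first end (1.74), as were the troponin Tnnt2 (1.35), the smooth muscle genes Myh11 (0.77) and Acta2 (0.58), the endothelial receptor Kdr (0.78) and Cxcl14 (0.89). Each of these 14 genes had an edgeR adjusted p under 0.05, and their part in the light chain differences was not tested.

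Section to section, Myl1 and Mylpf kept together. Pearson r between their log2(CPM + 1) was 0.49, 0.78, 0.72 and 0.63 over the sections of muscles 1 to 4. Mylk2 went with Mylpf with a mean r of 0.38 (0.24 to 0.46), which dropped to 0.11 with mitochondrially encoded genes left out of the total, and with Myl1 with a mean of 0.20 (0.04 to 0.37). Between Myl1 and Myl3 r was negative in each muscle, at -0.26, -0.24, -0.33 and -0.34, and between Myl3 and Myl4 it was -0.19, -0.17, -0.24 and -0.40. The Myl4 values rest on sections with mostly 0 or 1 count. All these values are descriptions, since sections of a muscle share a library and a common total. Without the mitochondrial genes, the mean r of Myl1 with Mylpf was 0.40, that with Myl3 -0.46 and that with Mylk2 -0.06.

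The genes whose pattern over sections was most like that of Myl1 were the tropomyosin Tpm1 (mean r over the 4 muscles 0.77), the calcium buffer Pvalb (0.77) and the fast myosin-binding protein Mybpc2 (0.74). They were chosen out of 1362 genes of at least 30 CPM, whose median r with Myl1 was 0.27. Those most like Mylpf were the fast troponins Tnni2 (0.84) and Tnnc2 (0.80) and Pvalb (0.80), against a median of 0.37. Tpm1, Pvalb and Tnnc2 come near the ceiling of the counts, as Myl1 does. Mylk2 had no partner of that closeness: Eif5a, a translation factor, and Ddit4l were at 0.49 and Cluh at 0.47, against a median of 0.23. Myl3 missed the count minimum in muscle 2, and over the other 3 muscles, a choice made after seeing this, its nearest genes were Myh2 (0.62), Ptma (0.61) and Pcbp2 (0.54), against a median of 0.15. In muscle 2 these were at 0.19, 0.04 and 0.18.

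The other genes of the myosin and thin filament systems were taken by fixed lists. Among 15 tested genes for non-sarcomeric light chains, light chain kinases, phosphatase subunits and calmodulins (19 listed), 0 were called between ends and middle by edgeR (0 at an unadjusted p under 0.05), 0 by DESeq2 (of 7 with an adjusted p) and 0 by limma (1 at an unadjusted p under 0.05). Their median difference was -0.04, against -0.005 over all genes tested. Between the first and the last end 1 of these was called: Mylk4, a kinase of the same family as Mylk2, was lower at the first end (-0.31, edgeR adjusted p = 0.00723). Its level, 266 CPM, was above the 33.9 CPM of Mylk2. Of 9 fast fibre genes for the sarcomere and calcium handling, 2 were called higher at the ends. These were Casq1, the calcium store of the sarcoplasmic reticulum (0.38, edgeR adjusted p = 0.00177), and the myosin-binding protein Mybpc2 (0.27, edgeR adjusted p = 0.0117). All 9 differences were positive, with a median of 0.20. DESeq2 called 5 of these 9 and limma 1. The share called by edgeR over all genes tested was 1.45%. Of 4 tested slow fibre genes for the sarcomere and calcium handling, Myoz2, a Z-disc protein that binds calcineurin, fell (-0.81 ± 0.14, edgeR adjusted p = 2.14e-04). The slow troponins Tnnt1, Tnni1 and Tnnc1 had 111, 72 and 93 counts and were not tested. Of 4 other thick filament genes 0 were called by edgeR (1 at an unadjusted p under 0.05), 0 by DESeq2 (of 3 with an adjusted p) and 0 by limma. Between the first and the last end, where 3.19% of all genes were called, the fast list had 1 call, the Z-disc protein Actn3 (-0.37, edgeR adjusted p = 0.00152). The slow list had 2, both higher at the first end: the calcium store Casq2 (0.73, edgeR adjusted p = 8.77e-04) and the tropomyosin Tpm3 (0.73, edgeR adjusted p = 0.00460). Of the heavy chains Myh1 was higher at the first end (0.29, edgeR adjusted p = 0.0396) and Myh4 lower (-0.31, edgeR adjusted p = 0.0245).

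The unique molecular identifiers (UMIs) of this library have 6 bases, so the number a gene can show in a section has a ceiling, 4096, and the authors' correction stretches values close to that ceiling. Myl1 is the member it touches most. In 1 section of muscle 1, at position 0.875, Myl1 used 93.1% of the possible UMIs, past the mark of 90% taken here as near the ceiling. It used more than 50% of them in 27, 12, 20 and 22 sections of muscles 1 to 4. Mylpf reached 70.9% at most and passed 50% in 8, 2, 3 and 0 sections. The other 5 genes stayed at or below 2.10%. Deeper sections used more, so depth and closeness to the ceiling run together for both abundant genes. With whole UMIs in place of corrected counts, Myl1 differed between ends and middle by 0.35 ± 0.090 (edgeR adjusted p = 0.0249) and Mylpf by 0.20 ± 0.081 (edgeR adjusted p = 0.270).

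**Figure D5:**
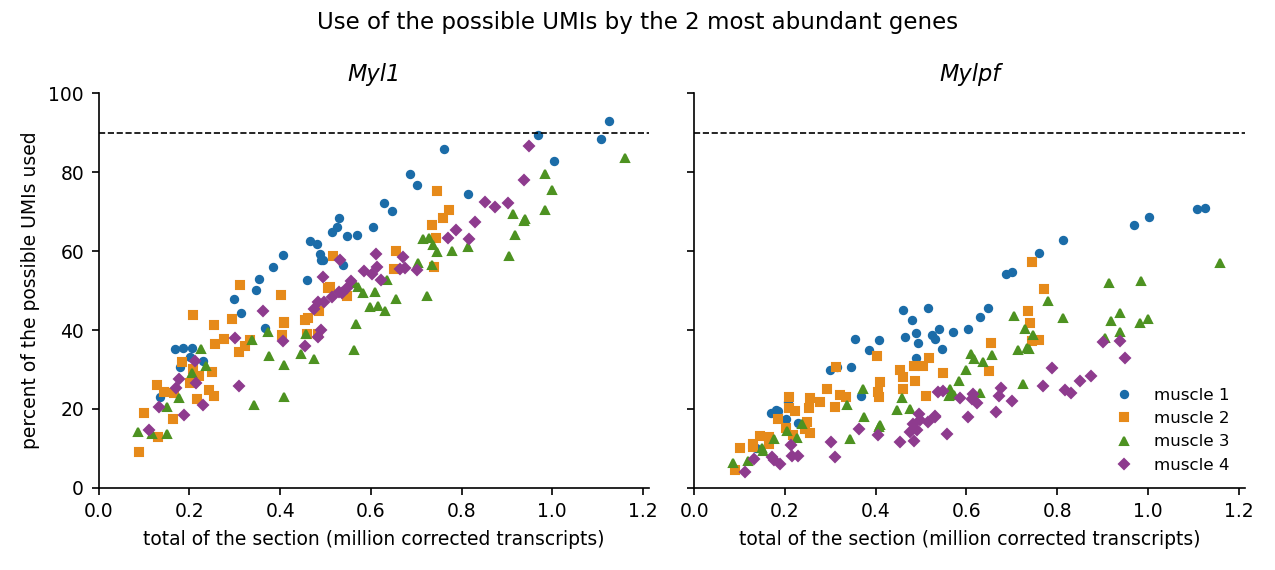
Percent of the 4096 possible UMIs used by Myl1 (left) and Mylpf (right) in each kept section against the section's total of corrected transcripts, with the 4 muscles as symbols. Only 1 Myl1 point, at 93.1%, lies above the dashed line at 90%.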

How the data were processed

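Per the labels' protocols, TRIzol was used on each cryosection and libraries were made by CEL-Seq2, whose primers held an 8-base section barcode and a 6-base UMI. The authors deposited, per muscle, an estimated count per gene for 96 barcodes. The submitters' processing notes name STAR 2.7.7a and GRCm38. No source used here names the counter or the annotation, or says whether strand was used. All these deposited values lie within 0.001 of a whole number of UMIs after correction for collisions among 4096 possible UMIs. The authors also deposited a filtered table in a normalized signal, which served here only to learn the kept sections (relative tolerance 1e-06).

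Entries naming several genes (0.58% to 0.93% of counts) were left out of tests and totals. Counts were summed in 5 zones per muscle, rounded, and tested by the quasi-likelihood F-test of edgeR 4.0.16 under R 4.3.3 (TMM, filterByExpr, muscle as a block because zones share a muscle, Benjamini-Hochberg over 9317 genes, threshold 0.05, biological coefficient of variation 7.03%). Zone sums held 1989683 to 6604613 transcripts. SE were derived from the F statistic, and rest on the spread of the 20 zone sums, not on that of the 4 muscle differences. Curves were natural splines (4 degrees of freedom), fitted to genes counted in 25% of sections or more. Log2 ratios were of rounded zone counts, with 0.5 added to each count. DESeq2 1.42.0 and limma 3.58.1 were alternatives, and the fits were tested on simulated data. Limits for a count of 0 (3 counts) cover counting error only. Gene positions are from GENCODE M21 (28701 of 28782 genes matched). The text names the 7 genes, the 3 genes most like each of them with a mean of 5 counts per section, listed genes past the threshold in either comparison of the ends, and the heavy chains. The members and lists were chosen with earlier results of these data known.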

Additional observations from a re-analysis of the deposited data

Results flagged for a closer look

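In 33 groups of 4 muscle values, 5 held a value far from the other 3, by a test that chance passes in about 1 of 20 groups. The level of Myl3 was 36 CPM in muscle 1 against 10.5 to 13.7 CPM in the others. The level of Myl6b was 10.2 CPM in muscle 4 against 5.12 to 5.49 CPM. Between the first and the last end, Myl3 differed by 2.22 log2 units in muscle 2 against -0.23 to -0.11 in the others, and the ratio of Myl3 to Myl1 by 2.55 against -0.04 to -0.02. The ratio of Myl2 to Mylpf differed by 1.71 in muscle 2 against -1.01 to -0.60, on 0 to 8 Myl2 counts per zone there.

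Entries that name a light chain gene together with other genes were outside the main measurement and held counts above what a count of 0 allows. For Myl1 they held 10571 counts, 2.04% of its own, nearly all of them shared with the pseudogene Mylf-ps. This share was 0.94% and 0.99% in muscles 1 and 2 and 3.32% and 2.90% in muscles 3 and 4. For Mylpf they held 137 counts (0.057% of its own), for Mylk2 36 (1.29%), for Myl3 4 (0.26%) and for Myl4 69 (53.1%). For Myl4 the share was 23.9%, 29%, 99.99% and 75% in muscles 1 to 4.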

How the results depend on the processing

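The fall of Myl3 at the ends kept its direction in every alternative, from -1.46 to -0.57. With the muscle block, it kept its call in each of the 18 alternatives that gave an adjusted p. The DESeq2 test gave Myl3 a difference of -0.88, but gave Myl3 and Myl4 no adjusted p. Without the muscle block (no replicate block), 0 of the 6 genes were called between ends and middle (2 at an unadjusted p under 0.05) and 0 over any zones (1), and the paired levels of zones of the same muscle then count as spread. Between ends and middle the 3 calls became 1 with the DESeq2 test (Myl1), and 1, Myl3, with 3 zones, within muscles 3 and 4, without the outermost sections and after thinning of the zone sums. Leaving out each muscle gave 1 to 3 calls (1 without muscle 2 or without muscle 3). With 10 zones there were 3, Myl1, Mylpf and Myl3. Between first and last end the 0 calls became 1 with 3 zones (Mylpf) and 2 with equal section weights in limma (Myl1 and Mylpf), and stayed at 0 without any single muscle. Over any zones the 4 calls became 2 within muscles 1 and 2, 1 within muscles 3 and 4, 2 with whole UMIs and 1 to 3 without a muscle. Myl4 could not be tested with 10 zones, without the outermost sections or after thinning, because it then missed the filter on low counts. The cause of the other changes was not tested.

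Scaling matters for small differences. With plain totals, an alternative added after seeing the data, 16 genes were called higher and 88 lower at the ends, against 58 and 77 with TMM, and 36 and 129 between the first and last end, against 191 and 106. The median gene then differed by -0.08 and -0.11 log2 units, and by -0.15 at the ends in limma. The ratio of Myl2 to Myl3 between the ends moved from -0.84 to -0.40 with the outermost sections left out. With mitochondrially encoded genes left out of the total, the mean r over sections moved to 0.40 for Myl1 and Mylpf, -0.058 for Myl1 and Mylk2, -0.46 for Myl1 and Myl3, 0.11 for Mylpf and Mylk2 and -0.28 for Mylpf and Myl3, and the cause was not tested. Depth limits Myl2 and Myl4, with 0 to 17 counts per zone, and the UMI ceiling limits Myl1.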
